A study of Rattus norvegicus with 9 samples.

Results

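The organic ion and drug transporters examined here were the 59 genes of the SLC22, SLC47, SLCO, ABCB, ABCC and ABCG families in a rat kidney expression table of 19367 genes, chosen by symbol and not by any measured value. Of these, 45 passed the filter on low values, as did 13127 genes of the whole table. Kidney RNA was sequenced in 3 groups of 3 libraries. The groups were spontaneously hypertensive rats (SHR, an inbred strain that develops high blood pressure) dosed orally with dapagliflozin (10 mg/kg each day over 8 weeks), SHR without the drug, and Wistar-Kyoto rats (WKY, the normotensive strain used as its control) without the drug. All rats were 3 months old at the start, and the labels give distilled water in one field and saline in another for the undosed groups. Dapagliflozin blocks the glucose carrier of the early proximal tubule. SHR and WKY are separate inbred strains that differ at many loci besides those for blood pressure, so that strain and blood pressure cannot be told apart here. The labels name 3 animals per group but do not tie libraries to animals, and p-values measure the spread between these libraries.

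Proximal tubule cells clear drugs, toxins, hormones and metabolites from blood into urine in a pair of steps. Uptake carriers of the SLC22 and SLCO families in the basolateral membrane bring organic anions and cations into the cell, anion uptake being driven by exchange for dicarboxylates, and efflux carriers in the apical membrane, such as MATE1 (Slc47a1) and the ATP-driven pumps P-glycoprotein (Abcb1a, Abcb1b), MRP2 (Abcc2) and MRP4 (Abcc4), release them into the lumen. The carriers are arranged along the tubule, with several restricted to its early or late part. Other members of the ABCB family sit in mitochondria or lysosomes, and some ABCC and ABCG members serve potassium channels or sterol export.

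The deposited unit is FPKM, mapped fragments scaled for transcript length and library size, so levels can be compared between genes. FPKM sums were 563643 to 589838 per library. Read totals are unknown. The smallest steps between low values gave median ratios of 0.939 to 1.07 between libraries. Only genes with near-equal low values in both libraries entered these ratios, so they cannot show whether relative depth was close. Markers of the proximal tubule, podocytes and collecting duct were detected in all libraries, the distal convoluted tubule marker Pvalb and the inner medulla marker Slc14a2 were listed at 0 in 8 and 5 of the 9 libraries, and the hepatocyte markers Alb, Apoa1 and Ttr reached at most 0.45 FPKM. The libraries differed in segment markers. The mean log2(FPKM + 1) of 8 early proximal markers was 5.30, 6.32 and 5.25 in treated SHR libraries 1 to 3, 6.82, 6.46 and 5.80 in SHR, and 6.54, 7.14 and 6.94 in WKY. That of 6 late proximal markers was 7.55, 5.89 and 6.12 in treated SHR, 6.94, 7.25 and 7.24 in SHR, and 7.98, 7.14 and 7.65 in WKY. Summed FPKM of the 8 podocyte markers ran from 346 to 603 in treated SHR, 331 to 522 in SHR and 134 to 335 in WKY, and that of 5 collecting duct markers from 1061 to 1934, 766 to 895 and 322 to 600 in the same order. In bulk tissue, fewer cells of a type and less RNA per cell cannot be told apart.

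The transporters spanned a wide range of levels. The basolateral cation carrier Slc22a2 (OCT2) had the highest median over the 9 libraries, 522 FPKM, followed by the anion carriers Slc22a6 (OAT1) at 468, Slc22a8 (OAT3) at 303 and Slco1a6 at 193 FPKM. The 10 most abundant members held 74.4% to 85.9% of the summed FPKM of all 59. That sum was 2323, 1760 and 1181 FPKM in treated SHR libraries 1 to 3, 2668, 2637 and 2579 in SHR, and 3450, 2678 and 2838 in WKY, so all 3 treated libraries lay below the others. No test was made of this sum. Among efflux pumps with known drug substrates, Abcc4 was the most abundant at a median of 14.8 FPKM, and the medians of the other kept ABCC efflux members and of both P-glycoprotein genes were below 10 FPKM. The 14 members that did not pass the filter reached at most 1.49 FPKM in any library. They were Slc22a3, Slc22a14, Slc22a20, Slc47a2, Slco1a5, Slco4a1, Slco5a1, Abcb4, Abcb5, Abcb11, Abcc9, Abcc12, Abcg5 and Abcg8. Abcb5 and Abcg8 were listed at 0 throughout.

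**Figure D1:**
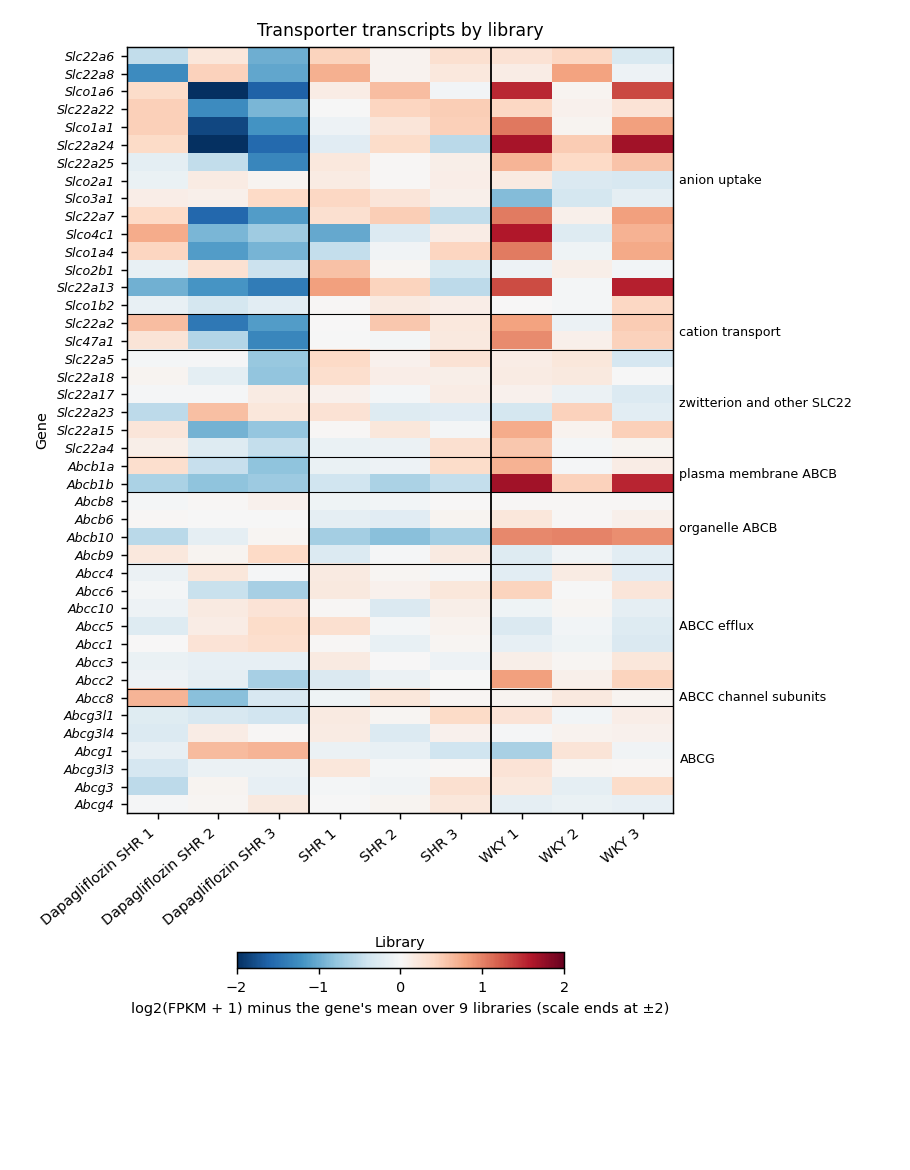
Levels of 43 kept transporters (rows, grouped by role) in the 9 libraries (columns), as log2(FPKM + 1) minus the gene's mean over the 9 libraries; red is above and blue below that mean. Slco1a6 and Slc22a24 were lowest in dapagliflozin-treated libraries 2 and 3 and Slc22a8 in treated libraries 1 and 3, while Abcb10 and Abcb1b were high in the 3 WKY libraries.

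The comparison of undosed SHR with WKY sets the hypertensive strain against its control. Of the transporters, 2 fell in SHR, the mitochondrial Abcb10 and the P-glycoprotein gene Abcb1b, and none rose. These were 4.44% of the 45 kept transporters, where the background was 2.96% of all genes tested, with 1.12% called lower and 1.84% called higher. A called gene is one with an adjusted p under 0.05 in limma with Benjamini-Hochberg adjustment over 13127 genes.

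Abcb10 (gene ID 361439) encodes a transporter of the mitochondrial inner membrane that is known for its part in heme synthesis. It measured 7.53, 6.6 and 7.51 FPKM in the 3 SHR libraries, against 25.6, 26.2 and 24.9 FPKM in the 3 WKY libraries. Both groups were tight and far apart, with a WKY mean 3.54 times the SHR mean. The means were 7.21 ± 0.531 FPKM in SHR and 25.6 ± 0.665 in WKY (SD, n = 3 each), and the test gave a log2 change -1.70, SE 0.13, adjusted p = 0.000234. Treated SHR stood at 8.41, 11.04 and 12.9 FPKM, also below every WKY library (log2 change -1.19, SE 0.13, adjusted p = 0.00156). Abcb10 remained called against WKY in both comparisons under all 18 alternatives tried for each. With the proximal tubule score as a covariate its adjusted p was 0.000713 in SHR against WKY.

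Abcb1b (gene ID 24646) is one of the paired rodent genes for P-glycoprotein, the apical pump that exports many lipophilic drugs. It measured 0.51, 0.29 and 0.43 FPKM in SHR, against 5.39, 1.73 and 4.72 FPKM in WKY. Every SHR library was below every WKY library, and the WKY mean was 9.63 times the SHR mean, although WKY library 2 was well below its group. The test on the log2(FPKM + 1) scale, which understates changes of weakly expressed genes, gave a log2 change -1.72, SE 0.29, adjusted p = 0.0155. Abcb1b was the only kept member that passed the filter through 1 group alone, WKY, so that its call in that direction was favoured by the filter. The call was lost without WKY library 1 (adjusted p = 0.0563), WKY 3 (0.0783), SHR 1 (0.0593), SHR 2 (0.0696) or SHR 3 (0.0594), as limma adjusted p-values, and with the proximal tubule score as a covariate (adjusted p = 0.227). That covariate takes away some of the group difference by construction.

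Its neighbour on the chromosome, Abcb1a, encodes the other P-glycoprotein and was not called. Abcb1a measured 3.01, 3.09 and 4.69 FPKM in SHR and 6.16, 3.32 and 3.87 FPKM in WKY, and the groups overlapped (log2 change -0.23, SE 0.30, adjusted p = 0.692). The level of Abcb1b was 0.169, 0.0939 and 0.0917 times that of Abcb1a in the 3 SHR libraries, against 0.875, 0.521 and 1.22 times in WKY. In treated SHR the ratio was 0.0633, 0.0639 and 0.131. Reads of such close copies can be exchanged between them, so the split between Abcb1a and Abcb1b is uncertain. The sum of both was 3.52, 3.38 and 5.12 FPKM in SHR and 11.6, 5.05 and 8.59 FPKM in WKY, and the groups overlapped. Abcb4, the phosphatidylcholine translocase next to Abcb1b, was too low to be tested, at 0.47, 0.52 and 0.39 FPKM in SHR and 0.72, 0.58 and 0.82 FPKM in WKY.

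**Figure D2:**
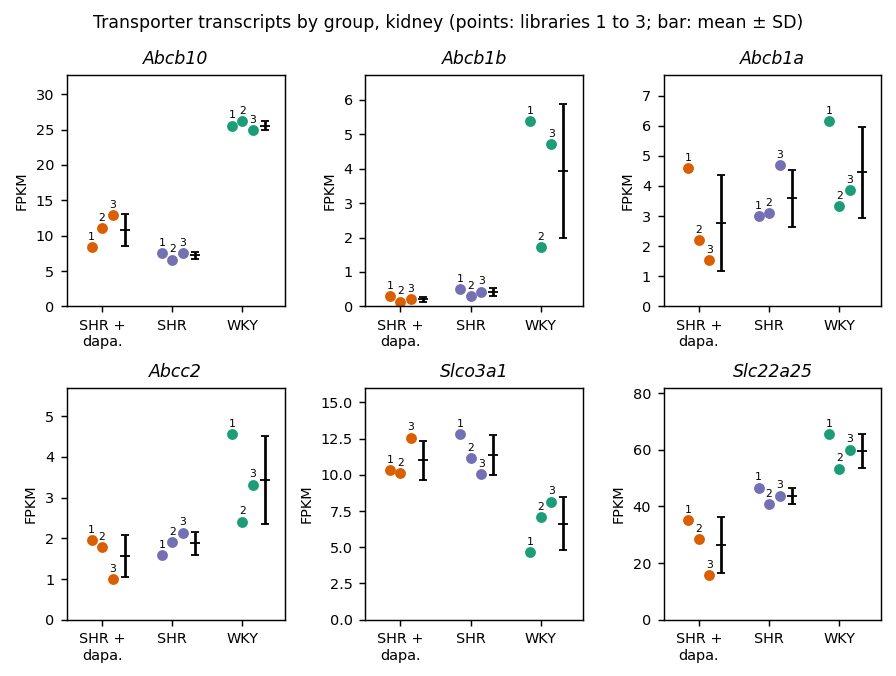
FPKM of 6 transporters in dapagliflozin-treated SHR, SHR and WKY; points are libraries, numbered 1 to 3, and bars are the mean ± SD of 3 libraries. Abcb10 at 6.60 to 7.53 FPKM in SHR lay far below the 24.9 to 26.2 FPKM of WKY, while Abcb1a overlapped between the groups.

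The start regions of these 3 ABCB genes are shown because they include both calls and the copy that was not called. They run from 250 bases before to 50 bases after the annotated transcription start, from RefSeq on GRCr8, a Brown Norway assembly. They show neither SHR nor WKY sequence, and the assembly is not the authors' build. Of the 59 transporters, 48 had an entry. Abcb10 lies at chr19:68880154-68880453, Abcb1b at chr4:26279980-26280279 and Abcb1a at chr4:26397599-26397898, all on the minus strand, and the sequences read 5′ to 3′ along the gene. Capitals mark matches, on either strand, to the TATA box TATAAA, the CCAAT box, the GC box GGGCGG, the partial HNF1 motif GTTAAT, the antioxidant response element core TGACNNNGC and the xenobiotic response element core GCGTG.
Abcb10: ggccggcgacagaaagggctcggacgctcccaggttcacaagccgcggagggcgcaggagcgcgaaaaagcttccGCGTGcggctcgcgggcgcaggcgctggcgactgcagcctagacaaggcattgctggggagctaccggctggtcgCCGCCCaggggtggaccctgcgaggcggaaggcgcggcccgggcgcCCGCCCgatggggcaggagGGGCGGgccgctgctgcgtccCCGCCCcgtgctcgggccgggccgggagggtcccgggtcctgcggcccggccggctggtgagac
Abcb1b: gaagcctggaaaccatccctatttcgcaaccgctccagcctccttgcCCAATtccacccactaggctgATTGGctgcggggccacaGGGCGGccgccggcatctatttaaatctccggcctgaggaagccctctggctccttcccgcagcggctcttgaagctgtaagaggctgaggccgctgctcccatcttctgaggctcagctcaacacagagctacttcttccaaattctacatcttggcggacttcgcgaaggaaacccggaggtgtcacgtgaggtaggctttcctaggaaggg
Abcb1a: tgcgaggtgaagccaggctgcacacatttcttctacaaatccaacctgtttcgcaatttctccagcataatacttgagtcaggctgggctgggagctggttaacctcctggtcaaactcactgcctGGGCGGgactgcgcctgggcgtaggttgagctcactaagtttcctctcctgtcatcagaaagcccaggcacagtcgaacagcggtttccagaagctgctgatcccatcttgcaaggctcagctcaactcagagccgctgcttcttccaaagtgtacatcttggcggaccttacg
The Abcb10 window held 4 GC boxes and 1 GCGTG, the Abcb1b window 2 CCAAT boxes and 1 GC box, and the Abcb1a window 1 GC box. Among 33469 entries of the same length, 33.1% held a GC box, 37.5% a CCAAT box and 29.7% a GCGTG. In Abcb1b the CCAAT matches began at -203 and -182 from the start site. No motif of the searched set overlapped another in these windows. A match is a description of the letters and not a site shown to be bound.

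The remaining strain differences did not pass. Slco3a1, a widely expressed carrier of prostaglandins and thyroxine, measured 12.8, 11.2 and 10.1 FPKM in SHR, against 4.64, 7.11 and 8.16 in WKY, with no overlap (log2 change 0.72, SE 0.18, adjusted p = 0.0758). Abcc2, the apical conjugate pump MRP2, measured 1.58, 1.91 and 2.14 FPKM in SHR, against 4.56, 2.41 and 3.32 in WKY, again without overlap (log2 change -0.60, SE 0.21, adjusted p = 0.176). In all, 7 kept transporters lay below and 3 above every WKY library in SHR, 22.2% of them, against 28.4% of all genes tested; the share below was 15.6% against 8.11%, and the share above 6.67% against 20.3%. The median log2 change was -0.05 over the 45 and 0.07 over all genes.

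The main drug uptake carriers overlapped between the strains. Slc22a6 measured 487 ± 65.1 FPKM in SHR and 448 ± 110 in WKY (mean ± SD, n = 3 each). Slc22a8 measured 350 ± 85 FPKM in SHR and 345 ± 118 in WKY, and Slc22a2 measured 544 ± 103 FPKM in SHR and 619 ± 190 in WKY. Their adjusted p-values in limma were 0.813, 0.961 and 0.881, which does not show that the strains were alike. Slc22a24, which in humans carries steroid conjugates, stood at 31.9, 48.6 and 25.6 FPKM in SHR, against 120.1, 54.0 and 122 in WKY, and did not pass (adjusted p = 0.256).

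The comparison of dapagliflozin-treated with undosed SHR asks what the drug changed in the hypertensive strain. No transporter was called by limma, as was no gene of the whole table (background 0.00%). At an unadjusted p under 0.05 there were 11 of 45 transporters, 24.4%, against 15.2% of all genes. Levels in treated SHR were lower for 35 of the 45, or 77.8% against 42.6% of all genes, and the median log2 change was -0.23 against 0.04. The count of 35 was also obtained after quantile normalization and after median-of-ratios scaling. The groups did not overlap for 11 transporters, 9 lower and 2 higher, which were 20.0% and 4.44% of the 45, where the background was 6.44% and 12.6%, or 19.0% in both directions. Among the lower ones, Slc22a13 and Slco1b2 had no treated library at 1 FPKM. They passed the filter through SHR and WKY libraries, which favoured this direction.

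The anion uptake carriers held 14 of these 35 lower levels, out of 15 kept members, with a median log2 change of -0.78. Every listed early and late proximal marker was also lower in treated SHR, with log2 changes from -0.12 (Slc5a1) to -1.20 (Slc5a2). None of these markers was called, and a link to the carriers was not tested. Slc22a6, the basolateral exchanger that takes up many anionic drugs, measured 282, 468 and 201 FPKM in treated SHR, against 545, 416 and 500.4 in SHR. Slc22a8, which takes up bulkier anions, measured 113, 377 and 132 FPKM in treated SHR, against 446, 286 and 317 in SHR. For both, treated library 2 lay inside the SHR range and treated libraries 1 and 3 lay below it. Neither passed (log2 change -0.70, SE 0.30, adjusted p = 0.322 for Slc22a6 and log2 change -0.94, SE 0.43, adjusted p = 0.341 for Slc22a8).

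Other anion carriers were low in treated libraries 2 and 3. Slco1a6, an anion carrier abundant in rodent kidney, measured 224, 33.2 and 56.2 FPKM in treated SHR, against 193, 268 and 168 in SHR. Slc22a24 measured 49.2, 6.98 and 12.1 FPKM in treated SHR, against 31.9, 48.6 and 25.6 in SHR. Here treated library 1 lay within or just above the SHR range, and treated libraries 2 and 3 lay below all SHR libraries. Slc22a7 (OAT2), at 5.55, 0.68 and 1.29 FPKM in treated SHR and 5.18, 5.97 and 2.54 in SHR, showed the same order of libraries. Slco4c1, a basolateral carrier of digoxin and thyroid hormone, measured 8.03, 1.86 and 2.29 FPKM in treated SHR and 1.66, 3.44 and 5.0 in SHR, with overlap. Slco1a6 has close copies in its family, as have Slc22a24, Slc22a25 and Abcg3l1 in theirs, and reads may be exchanged among them, so their individual levels are uncertain.

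Weakly expressed Slc22a13, an anion exchanger known in humans to carry nicotinate, was at 0.35, 0.16 and 0 FPKM in treated SHR, against 3.65, 2.58 and 0.83 in SHR. All treated libraries were below all SHR libraries (log2 change -1.43, SE 0.45, adjusted p = 0.283). No treated library reached 1 FPKM, so Slc22a13 passed the filter through SHR and WKY libraries. That favoured a lower level in treated SHR. Slc22a25, an SLC22 member for which no role is given here, was at 35.1, 28.5 and 15.7 FPKM in treated SHR, against 46.6, 40.8 and 43.8 in SHR, without overlap (adjusted p = 0.281). The prostaglandin carrier Slco2a1 was at 11.2, 13.9 and 12.8 FPKM in treated SHR and 13.9, 12.5 and 13.5 in SHR, and did not separate the groups.

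Among the cation carriers, Slc22a2, the basolateral uptake carrier of metformin and creatinine, measured 694, 168 and 207 FPKM in treated SHR, against 454, 656 and 522 in SHR. Slc47a1, the apical proton exchanger MATE1 that releases cations into the lumen, measured 118, 65.7 and 39.5 FPKM in treated SHR, against 97.97, 96.5 and 113 in SHR. In both, treated library 1 was above every SHR library and treated libraries 2 and 3 were below all of them. Neither passed (adjusted p of 0.387 and 0.428 for Slc22a2 and Slc47a1 in limma). Slc22a3 stayed at no more than 0.23 FPKM in any library and Slc47a2 at no more than 0.44.

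**Figure D3:**
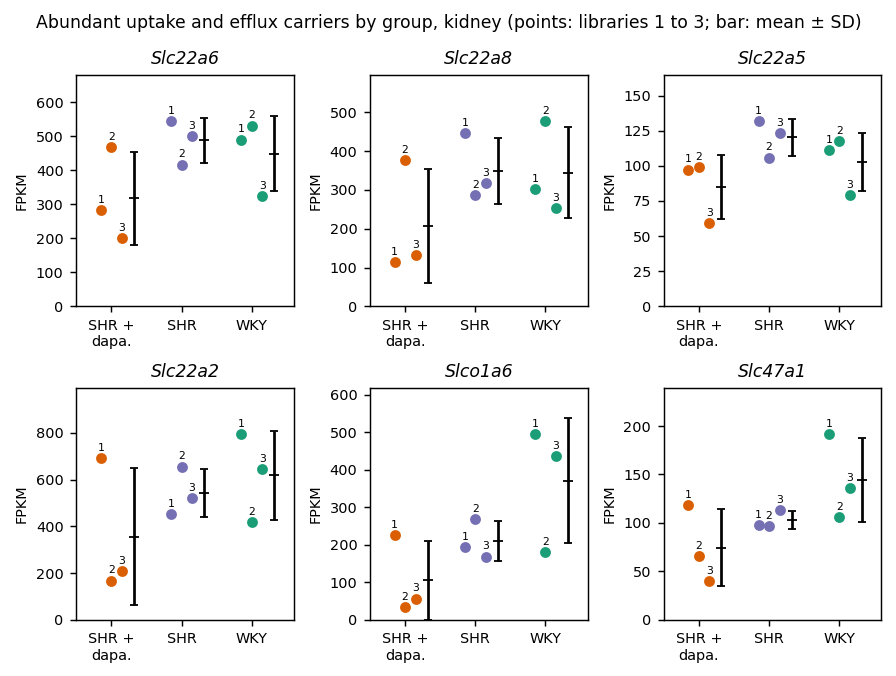
FPKM of 6 abundant uptake and efflux carriers in dapagliflozin-treated SHR, SHR and WKY; points are libraries, numbered 1 to 3, and bars are the mean ± SD of 3 libraries. Treated library 1 was low for Slc22a8 at 113 FPKM but high for Slc22a2 at 694 FPKM, and treated library 2 was the reverse at 377 and 168 FPKM.

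The zwitterion carriers stood between these patterns. Slc22a5 (OCTN2), the carnitine carrier, measured 97.3, 98.8 and 59.0 FPKM in treated SHR, against 132, 106 and 123 in SHR, without overlap (adjusted p = 0.315). Slc22a4 (OCTN1), the ergothioneine carrier, measured 7.28, 5.41 and 4.49 FPKM in treated SHR and 5.97, 6.05 and 8.53 in SHR, with overlap. Of the 6 kept members of this group, which also holds Slc22a15, Slc22a17, Slc22a18 and Slc22a23, 5 had lower levels in treated SHR, at a median log2 change of -0.37.

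The ATP-driven members were less uniform. The organelle members Abcb10, Abcb6, Abcb8 and Abcb9 had higher mean levels in treated SHR, and none passed. Abcb10 measured 8.41, 11.04 and 12.9 FPKM in treated SHR, against 7.53, 6.6 and 7.51 in SHR (log2 change 0.51, SE 0.13, adjusted p = 0.281). Its groups did not overlap, and Abcb10 in treated SHR stayed far below WKY. Abcb6, Abcb8 and the lysosomal peptide carrier Abcb9 measured 22.2 ± 0.323, 25.4 ± 1.23 and 4.39 ± 0.646 FPKM in treated SHR, against 20.4 ± 2.28, 24.2 ± 0.802 and 3.51 ± 0.695 in SHR.

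Abcc6, a basolateral transporter whose loss in humans leads to ectopic calcification, measured 8.67, 6.29 and 5.29 FPKM in treated SHR, against 10.3, 9.55 and 10.7 in SHR (log2 change -0.55, SE 0.17, adjusted p = 0.281). Abcg3l1, a rodent member of the ABCG family for which no role is given here, measured 51.5, 48.5 and 46.3 FPKM in treated SHR, against 69.3, 62.4 and 79.4 in SHR, and had the smallest unadjusted p of the transporters (log2 change -0.52, SE 0.11, adjusted p = 0.281). Both were lower in every treated library than in any SHR library. Abcg1, which exports cholesterol to lipoproteins, measured 5.67, 10.6 and 11.1 FPKM in treated SHR and 5.88, 5.75 and 4.68 in SHR, where treated libraries 2 and 3 were high and library 1 lay within the SHR range.

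The drug efflux pumps mostly overlapped between treated and undosed SHR. Abcc4 (MRP4), which exports cyclic nucleotides and prostaglandins, measured 13.8, 17.8 and 14.7 FPKM in treated SHR and 17.1, 15.5 and 14.8 in SHR. Abcc1 (MRP1), a pump of glutathione conjugates, measured 3.67, 4.64 and 4.89 FPKM in treated SHR and 3.71, 3.17 and 3.75 in SHR. Abcc3 (MRP3), a basolateral conjugate pump, measured 2.21, 2.15 and 2.14 FPKM in treated SHR, against 3.01, 2.53 and 2.3 in SHR, the only member of these with separate groups (adjusted p = 0.42). Abcc2 measured 1.96, 1.78 and 0.99 FPKM in treated SHR and 1.58, 1.91 and 2.14 in SHR, and Abcb1a measured 4.58, 2.19 and 1.53 FPKM in treated SHR and 3.01, 3.09 and 4.69 in SHR, with treated library 3 the lowest for both.

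The number of calls depended on treated library 1. Without it, limma called 11 of 45 transporters in treated against undosed SHR, 1 higher and 10 lower, or 2.22% and 22.2%, where the background was 3.10% and 3.22% of all genes. Those lower were Slc22a2, Slc22a15, Slc22a18, Slc22a22, Slc22a24, Slc22a25, Slco1a1, Slco1a6, Abcc6 and Abcg3l1, and Abcb10 was higher. Treated libraries 2 and 3, on which this rests, had late proximal marker means of 5.89 and 6.12, below the 6.94 to 7.25 of SHR. The part of that marker difference in these calls was not tested.

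Within the treated group, libraries 1 and 2 differed in opposite ways for different carriers. Of the 45 transporters, 15 were at least 1.5 times higher in library 1 than in library 2, 6 were at least 1.5 times higher in library 2, and 24 lay between. The first set was led by Slc22a7, Abcc8, Slc22a24, Slco1a6, Slco1a4 and Slco1a1, at 8.16, 7.41, 7.05, 6.76, 6.02 and 5.07 times, and held Slc22a2 at 4.14 and Slc47a1 at 1.80 times. The second set was Slc22a8 at 3.33, Slc22a23 at 2.34, Abcg1 at 1.87, Abcg3 at 1.83, Slc22a6 at 1.66 and Slco2b1 at 1.61 times. WKY libraries 1 and 2 differed in the same direction for 14 of the 15, Abcc8 being the exception, and for 5 of the 6, Abcg3 being the exception. The share of all genes doing so was not counted. Over all genes tested, deviations from the group mean correlated at 0.456 for treated 1 with WKY 1 and 0.392 for treated 2 with WKY 2. The likeness of these same-numbered libraries was thus not confined to the transporters. Crosswise the values were -0.532 for treated 1 with WKY 2 and -0.284 for treated 2 with WKY 1. Deviations cancel out within a group by construction, so these opposite signs are partly forced and add little. These sets were chosen from the treated values and no test was made. The late proximal marker mean was higher in library 1 than in library 2 in treated SHR and in WKY, and the early proximal marker mean was higher in library 2. The early list was split, however. Slc5a2, Slc5a12, Slc7a7, Gatm and, by little, Slc34a1 were higher in library 2 in both groups, while Lrp2, Cubn and Aqp1 were higher in library 1.

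The ratio of Slc22a2 to Slc22a8, an abundant carrier of each set, was 6.13, 0.445 and 1.57 in treated SHR libraries 1 to 3, 1.02, 2.29 and 1.65 in SHR and 2.63, 0.872 and 2.54 in WKY. The ratio of Slco1a6 to Slc22a6 was 0.796, 0.0710 and 0.279 in treated SHR, 0.355, 0.645 and 0.336 in SHR, and 1.01, 0.340 and 1.35 in WKY. Of all 9 libraries, treated library 1 had the highest and treated library 2 the lowest ratio of Slc22a2 to Slc22a8. The start regions of Slc22a8 and Slc22a2 are shown as a pair that differed in opposite ways between treated libraries 1 and 2. In treated library 3 both were below every SHR library. They lie at chr1:214927034-214927333 on the plus strand and chr1:50710970-50711269 on the minus strand of GRCr8, with capitals as before.
Slc22a8: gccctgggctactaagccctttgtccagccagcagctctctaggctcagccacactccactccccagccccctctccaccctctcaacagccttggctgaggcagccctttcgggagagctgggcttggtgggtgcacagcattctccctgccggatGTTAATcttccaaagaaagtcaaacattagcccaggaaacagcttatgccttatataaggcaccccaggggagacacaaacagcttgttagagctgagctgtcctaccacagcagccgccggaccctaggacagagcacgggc
Slc22a2: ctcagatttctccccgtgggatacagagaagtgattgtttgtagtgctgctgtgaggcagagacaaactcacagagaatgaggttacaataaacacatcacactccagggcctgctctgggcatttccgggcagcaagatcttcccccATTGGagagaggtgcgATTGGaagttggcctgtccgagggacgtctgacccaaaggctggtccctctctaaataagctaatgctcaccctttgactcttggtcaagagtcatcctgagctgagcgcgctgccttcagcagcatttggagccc
The Slc22a8 window held 1 GTTAAT, beginning at -93, and no other searched motif, and the Slc22a2 window held 2 CCAAT boxes on the opposite strand, beginning at -102 and -86. GTTAAT was found in 7.5% of the 33469 entries and in 6 of the 37 kept transporters with an entry, or 16.2%. The absence of a match says only that these letters are not in the window.

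**Figure D4:**
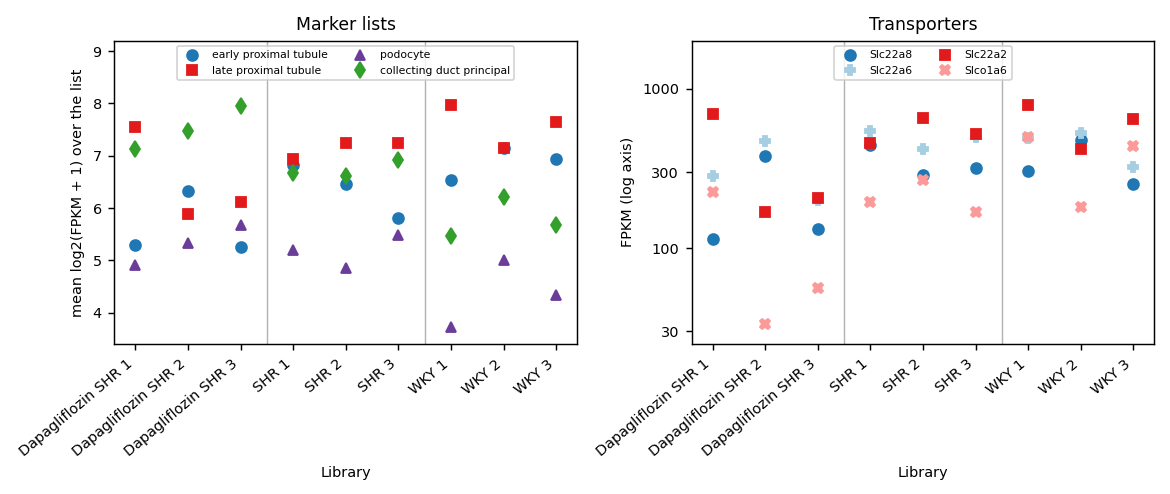
Left, mean log2(FPKM + 1) of 4 marker lists in each library; right, FPKM of 4 anion and cation carriers on a log axis, with groups ordered dapagliflozin-treated SHR, SHR and WKY. Treated library 1 had a low mean of early and a high mean of late proximal markers (5.30 and 7.55), and it had little Slc22a8 and much Slc22a2. Within the early list, Lrp2, Cubn and Aqp1 were higher in treated library 1 than in treated libraries 2 and 3.

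The comparison of treated SHR with WKY combines drug and strain, and it shares its libraries with both comparisons above. Of the transporters, 11 were called, 9 lower and 2 higher, which were 20.0% and 4.44% of the 45, where the background was 6.09% and 16.8% of all genes, or 22.9% called in all. Besides Abcb10 and Abcb1b, the lower ones were Slc22a13, Slc22a24, Slc22a25, Slco1a6, Abcc2, Abcc6 and Abcg3l1, and the higher ones were Slco3a1 and Abcc1. The median log2 change was -0.40 over the 45 and 0.11 over all genes. The groups did not overlap for 16 transporters, 11 lower and 5 higher, where the background was 10.4% and 28.2% of all genes, or 38.6% in both directions. Among the lower ones, Abcb1b, Slc22a13 and Slco1b2 had no treated library at 1 FPKM. They passed the filter through other groups, which favoured this direction. Without treated library 1, 23 of 45 were called, 19 lower and 4 higher, where the background was 10.5% and 26.0%, or 36.5% in all. Leaving out WKY 1, WKY 3, SHR 2, treated 2 or treated 3 gave 2, 3, 7, 5 and 3 called transporters of the 45, in that order. The same fits called 806, 593, 2263, 1076 and 945 of all 13127 genes. Scaling by median ratios moved the median of all genes to -0.01 and gave 1 higher and 11 lower transporters, and quantile normalization gave 0 and 11. Over all genes, median-ratio scaling gave 1445 higher and 1251 lower, and quantile normalization gave 1581 and 1057.

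Slc22a24, Slco1a6 and Slc22a13 had the largest log2 changes among the called transporters on the log2(FPKM + 1) scale, which understates changes of weakly expressed genes. The order of ratios of means differed. The WKY mean was 27.1 times the treated mean for Slc22a13 and 18.8 times for Abcb1b, against 4.34 for Slc22a24 and 3.54 for Slco1a6. Slc22a24 measured 49.2, 6.98 and 12.1 FPKM in treated SHR, against 120.1, 54.0 and 122 in WKY (log2 change -2.43, SE 0.62, adjusted p = 0.028). Slco1a6 measured 224, 33.2 and 56.2 FPKM in treated SHR, against 494, 180.4 and 435 in WKY, and here treated library 1 overlapped with WKY library 2 (log2 change -2.16, SE 0.65, adjusted p = 0.0434). Slc22a13 measured 0.35, 0.16 and 0 FPKM in treated SHR, against 5.54, 1.57 and 6.71 in WKY (log2 change -2.12, SE 0.45, adjusted p = 0.0164). It passed the filter through SHR and WKY libraries, as no treated library reached 1 FPKM. That favoured a call in this direction. Slc22a25 measured 35.1, 28.5 and 15.7 FPKM in treated SHR, against 65.5, 53.4 and 60.05 in WKY (log2 change -1.21, SE 0.24, adjusted p = 0.0141). Late proximal markers were also lower in treated libraries 2 and 3 than in any WKY library. With the proximal tubule score as a covariate, 1 transporter, Abcb10, was called, and the log2 change of Slco1a6 turned to 0.08 (adjusted p = 0.996 in limma). Over all genes the calls fell from 3010 to 42 with this covariate. The covariate takes away some of the group difference by construction, and the cause was not tested.

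Of the called ABC members, Abcc2 measured 1.96, 1.78 and 0.99 FPKM in treated SHR, against 4.56, 2.41 and 3.32 in WKY (adjusted p = 0.0332), and Abcc6 measured 8.67, 6.29 and 5.29 FPKM in treated SHR, against 12.5, 8.86 and 10.7 in WKY (adjusted p = 0.0345). Abcg3l1 measured 51.5, 48.5 and 46.3 FPKM in treated SHR, against 73.5, 58.8 and 66.9 in WKY (adjusted p = 0.0275). Abcc1 measured 3.67, 4.64 and 4.89 FPKM in treated SHR, against 3.16, 3.36 and 2.82 in WKY (adjusted p = 0.0464), and it lost its call in 14 of 17 alternatives. Slco3a1 measured 10.3, 10.1 and 12.6 FPKM in treated SHR, against 4.64, 7.11 and 8.16 in WKY (adjusted p = 0.0307), and treated and undosed SHR overlapped. Abcb1b measured 0.29, 0.14 and 0.2 FPKM in treated SHR, against 5.39, 1.73 and 4.72 in WKY (log2 change -1.94, SE 0.29, adjusted p = 0.00559). It passed the filter through WKY alone, which favoured a call in this direction here too. The filter from all 9 libraries was used in every leave-one-out fit, so those fits do not address this. Abcb1b kept its call in each of them but not with the proximal tubule score as a covariate (adjusted p = 0.681), to which the limit above applies.

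Several abundant carriers of the fixed set did not pass against WKY, although Slco1a6 of that set did. Slc22a6 measured 317 ± 137 FPKM in treated SHR and 448 ± 110 in WKY, and Slc22a2 measured 356 ± 293 FPKM in treated SHR and 619 ± 190 in WKY (mean ± SD, n = 3 each; adjusted p of 0.198 and 0.142 in limma). Slc22a8 measured 303, 478 and 254 FPKM in WKY, with its treated values as above (adjusted p = 0.157 in limma). In all 3 of these the treated range was wide and overlapped that of WKY. Slc47a1 measured 192, 106 and 136 FPKM in WKY, where treated library 1 again overlapped (adjusted p = 0.0627). These carriers were not called in any of the 3 comparisons.

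The remaining carriers of the fixed set were not called in any comparison either. In WKY, Slc22a7 measured 9.23, 4.32 and 7.79 FPKM, and 2 treated libraries lay below all of these. Slco4c1 measured 15.3, 3.49 and 7.7 FPKM in WKY, a wide range that held treated library 1. The carnitine carrier Slc22a5 measured 111, 118 and 79.2 FPKM in WKY, and Slc22a4 measured 10.2, 6.43 and 6.99 FPKM. Treated and WKY libraries overlapped for both, as they did for Slco2a1 at 14.1, 9.82 and 9.65 FPKM in WKY. Abcc4 measured 12.8, 16.9 and 12.7 FPKM in WKY and Abcg1 measured 3.79, 7.93 and 6.11 FPKM, also with overlap. Abcc3 measured 2.81, 2.61 and 3.12 FPKM in WKY, above every treated library (adjusted p = 0.0917 in limma).

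**Figure D5:**
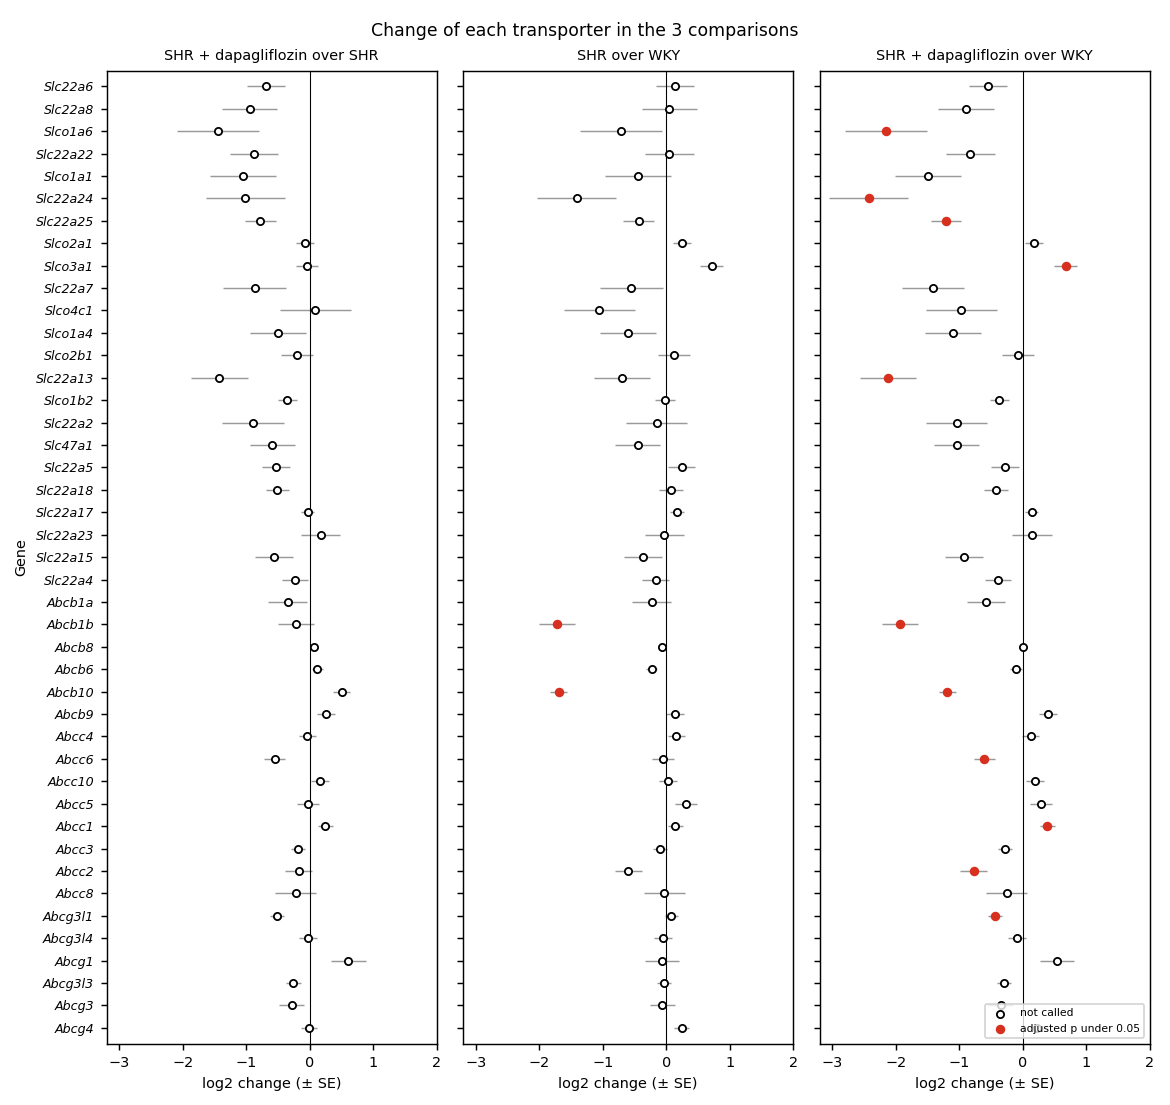
The log2 change (± SE) of 43 kept transporters in treated SHR over SHR, SHR over WKY and treated SHR over WKY, on the log2(FPKM + 1) scale; filled points have an adjusted p under 0.05 in limma. None is filled in the first panel, 2 in the second and 11 in the third.

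Genes that work with these carriers were taken from a fixed list of 24, of which 23 were kept: dicarboxylate carriers, scaffold proteins, a basolateral steroid carrier, transcription factors and sodium pump subunits. None was called in treated against undosed SHR or in SHR against WKY by limma, with 7 and 4 of 23 at an unadjusted p under 0.05. These were 30.4% and 17.4%, against 15.2% and 19.5% of all genes. In treated SHR against WKY, 3 of 23 rose and 0 fell, a share higher that lay below the background of 16.8%. The calls were 2 higher and 1 lower after quantile normalization and 1 higher and 2 lower after median-of-ratios scaling. Over all 13127 genes these gave 1581 higher and 1057 lower, and 1445 higher and 1251 lower. There were 0 of 23 without WKY 3, where 593 of all genes were called. Without treated library 1 there were 5 higher and 9 lower of 23, where the background was 26.0% and 10.5%. The count was 1 without WKY 1, SHR 1, treated 2 or treated 3, where 806, 2041, 1076 and 945 of all genes were called. Nfe2l2, the transcription factor of the antioxidant response, measured 73.8, 97.7 and 107 FPKM in treated SHR, against 54.9, 57.8 and 58.5 in WKY (log2 change 0.68, SE 0.13, adjusted p = 0.0136). The scaffold gene Slc9a3r2 measured 48.9, 50.1 and 68.2 FPKM in treated SHR, against 20.6, 39.5 and 30.6 in WKY (log2 change 0.89, SE 0.26, adjusted p = 0.0392). Rxra, a partner of nuclear receptors, measured 20.1, 23.9 and 19.4 FPKM in treated SHR, against 18.6, 15.6 and 14.4 in WKY (log2 change 0.36, SE 0.11, adjusted p = 0.0467). All 3 were higher in every treated library than in any WKY library.

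Partners known from the proximal tubule were also described in treated against undosed SHR, chosen after their values were seen. Slc13a3, the basolateral dicarboxylate carrier that feeds anion exchange, measured 285, 420.2 and 192 FPKM in treated SHR, against 459.7, 382 and 477 in SHR, with treated library 2 inside the SHR range as for Slc22a6. Hnf4a, a transcription factor of proximal tubule identity, measured 187, 128 and 77.2 FPKM in treated SHR, against 184, 212 and 186 in SHR, with treated libraries 2 and 3 the lowest. Pdzk1, an apical scaffold protein, measured 253, 243 and 131 FPKM in treated SHR, against 317, 318 and 281 in SHR, without overlap. None of these passed (adjusted p of 0.335, 0.315 and 0.295 for Slc13a3, Hnf4a and Pdzk1 in limma).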

How the data were processed

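Kidney RNA in 9 libraries was sequenced as single-end reads of 50 bases, per the labels' protocols. HISAT2 2.0.4 and Bowtie2 2.2.5 with the build Rnor_6.0 are named in the submitters' processing notes, with no roles; for the program behind the expression values and for the annotation the status is: not given in the sources used here. The deposited values are FPKM as the authors computed them, rounded to 2 decimals, per the file headers. FPKM shifts when abundant transcripts change. Groups came from the sample titles; the labels' strain field reads Wistar-Kyoto throughout.

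Genes with at least 1 FPKM in at least 3 libraries were kept. log2(FPKM + 1) was fitted with limma 3.58.1 in R 4.3.3 on all 9 libraries (group means, 6 residual degrees of freedom, variance trend, two-sided, Benjamini-Hochberg over 13127 genes); the code was tested on simulated data. Members and lists were chosen with earlier results of these data known. Per-library values are given for called members, the 4 with the smallest unadjusted p per comparison and a fixed set by role; others named with values were chosen after their values were seen. The proximal tubule score was the mean log2 value of the early and late proximal markers minus that of podocyte markers. Alternatives were another pseudocount, filter, scaling, variance prior or set of groups, the replicate block, that score as a covariate, and leaving out each library. Some genes of these families are not reported here, by name or in the plots. Python 3.11.15 was used for values and plots.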

Additional observations from a re-analysis of the deposited data

How the results depend on the processing

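Abcb10 kept its call in SHR and in treated SHR against WKY under all 18 alternatives each. The count of called transporters in SHR against WKY was 2 and moved to 1 with the stricter filter, which drops Abcb1b from the test, and to 1 with the proximal tubule score as covariate; leaving out a library gave 1 to 2. In treated SHR against WKY it was 11, and 7 with the stricter filter, 1 with the covariate, 4 with only the 2 groups compared, and 2 to 23 when a library was left out (2 without WKY 1, 3 without WKY 3, 7 without SHR 2, 5 without treated 2, 3 without treated 3, 23 without treated 1). In treated against undosed SHR it was 0, and 0 to 11 (11 without treated 1). Over all genes, 388 were called in SHR against WKY (241 higher, 147 lower), 121 with the covariate and 167 to 626 when a library was left out; quantile normalization gave 202 higher and 205 lower. In treated SHR against WKY 3010 were called (2211 higher, 799 lower), 42 with the covariate, 1026 with only the 2 groups and 593 to 4791 when a library was left out, while median-of-ratios scaling gave 1445 higher and 1251 lower. In treated against undosed SHR the count was 0, 1 with the replicate block and 0 to 830 when a library was left out. Partner genes called in treated SHR against WKY were 3, with 1 without the filter, 0 with the covariate, 1 with only the 2 groups and 0 to 14 by library left out; in treated against undosed SHR 0 to 5, and in SHR against WKY 0 to 0. The replicate block changed no count of transporters in SHR against WKY (2) or in treated against undosed SHR (0) and gave 10 in treated SHR against WKY. Deviations of same-numbered libraries correlated at -0.328 to 0.456. Of all pairs, WKY 1 with treated 1 was highest (0.456), followed by WKY 2 with treated 2 (0.392). The labels name no pairing, and a link between these libraries was not tested. Slco1a6 reversed with the covariate (log2 change 0.08, adjusted p = 0.996 in limma); the covariate also takes away some of the group difference by construction, and the cause was not tested. Of the other comparisons of a named transporter with an alternative, 259 kept direction and side of the threshold, 73 lost the call and 3 gained it. Depth is unknown, so limits for members listed at 0 cannot be given.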
